A study of Mus musculus with 4 samples.

Results

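The A+T-rich probes are the 60 nt probes of a mouse tiling array whose sequence holds at most 20 G and C bases together. They were chosen by base composition alone, with no measured value, and 2401 of the 19805 tiled probes (12.1%) met the rule. Of these, 687 probes hold 18 G and C bases, 842 hold 19 and 872 hold 20, and no probe on the array holds fewer than 18. The probes read the abundance of nascent strands in undifferentiated embryonic stem (ES) cells of the mouse line PGK12.1, which received no treatment. Nascent strands are short pieces of newly made DNA that still carry their RNA primer, which protects them from λ-exonuclease, so that sites where replication starts are enriched among them over total genomic DNA. Strands of 300–800 nt were hybridised against genomic DNA of ES cells on 2 arrays, and strands of 100–600 nt on another 2.

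All 4 arrays come from one cell line and from asynchronous cells, and sucrose gradient fractions with strands as short as 100 nt can also hold Okazaki fragments, the short pieces of the lagging strand. Both DNAs were labelled by random priming with dye-coupled dCTP. The nascent strands carried Cy3 on the 300–800 nt arrays and Cy5 on the 100–600 nt arrays, and the print design and the scanning software changed with them, so strand length, dye, design and software cannot be told apart in any comparison of the fractions. Both 300–800 nt arrays lay on the same slide. Over the A+T-rich probes the SD between these 2 arrays was 0.126 on the log2 scale, below the 0.148 and 0.144 that the repeated spots of each array give for the mean of 2 spots. They therefore differed by less than the noise of repeated spots, and the limma counts with loess are also given with their mean as 1 sample. The permutation tests, and the limma counts with median centring and normexp, count them as 2.

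Replication of a mammalian chromosome starts at many sites, the replication origins, where the double helix is first opened. In budding yeast, origins share an A+T-rich consensus, and A+T pairs are held by fewer hydrogen bonds than G+C pairs. Mammalian origins have no such consensus, and many of those mapped lie at CpG islands, the G+C-rich and CpG-rich stretches found at most housekeeping promoters. A probe with few G and C bases also binds its target less firmly than one with many, so its brightness falls in both dyes, and the ratio of the dyes then depends more on how background is treated.

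The sequences that carry the results are given first, with every G and C in capitals and A and T in lower case, 5′ to 3′. A probe is named by the fragment of the tiled, repeat-free sequence it lies in and by its offset within that fragment. The first 3 had the highest log2 ratios of nascent strands over genomic DNA in the 300–800 nt fraction, the fourth was the only A+T-rich probe high on all 4 arrays, and the next 3 had the lowest ratios in the 300–800 nt fraction.
Fragment 45447, offset 140, chromosome X: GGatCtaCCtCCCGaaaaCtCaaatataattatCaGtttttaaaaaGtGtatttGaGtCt
Fragment 108973, offset 10, chromosome 3: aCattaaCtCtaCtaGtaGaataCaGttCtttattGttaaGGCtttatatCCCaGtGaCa
Fragment 45574, offset 261, chromosome X: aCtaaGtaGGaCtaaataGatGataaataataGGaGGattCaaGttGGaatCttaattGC
Fragment 45824, offset 390, chromosome X: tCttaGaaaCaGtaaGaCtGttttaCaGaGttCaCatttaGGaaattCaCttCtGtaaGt
Fragment 65239, offset 30, chromosome X: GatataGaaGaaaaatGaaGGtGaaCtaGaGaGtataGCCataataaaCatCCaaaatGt
Fragment 109025, offset 40, chromosome 3: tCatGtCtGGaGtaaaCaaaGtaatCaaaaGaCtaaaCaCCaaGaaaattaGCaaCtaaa
Fragment 42622, offset 10, chromosome X: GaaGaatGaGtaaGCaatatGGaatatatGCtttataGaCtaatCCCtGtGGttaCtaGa

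The next 3 are A+T-rich probes that the study lists in its table of origins, one at a CpG island promoter, one in an intron and one between genes. They are shown because a listed origin here includes a probe with as few as 18 G and C bases.
Hprt promoter, origin 45326: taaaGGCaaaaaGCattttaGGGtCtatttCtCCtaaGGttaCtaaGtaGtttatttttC
Bcl9 intron, origin 106999: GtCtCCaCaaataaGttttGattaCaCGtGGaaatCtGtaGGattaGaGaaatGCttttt
Intergenic, origin 42942: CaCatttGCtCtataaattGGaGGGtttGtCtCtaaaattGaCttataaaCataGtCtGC

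The tiled sequence covers 1 region of chromosome 3 and 2 regions of chromosome X, which are parted by a wide gap in the fragment numbers. A+T-rich probes made up 9.18% of the probes on chromosome 3 (628 of 6842), 14.9% of the first X region (878 of 5882) and 12.6% of the second (895 of 7081). They sat in shorter pieces of repeat-free sequence than the other probes. The median length of their fragment was 343 bp against 795 bp, and 58.4% of them were the only probe of their fragment against 31.9% of the others. In all, 2224 of the 10582 fragments held at least 1 A+T-rich probe, at most 5 lay in the same fragment, and 789 fragments held both kinds.

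The composition that goes with the rule can be described further. An A+T-rich probe held a median of 10 C and 9 G bases, against 13 and 13 in the others, and A and T were balanced at a median of 20 each. At least 1 CpG, the dinucleotide that marks CpG islands, was present in 23.3% of A+T-rich probes and in 44.8% of the others. Runs of 6 A or 6 T occurred in 7.5% against 2.25% (2.88% of all probes). Searched on both strands, TATAAA was found in 12.3% (4.45% of all probes), AATAAA in 14.9% (6.21%) and ATATAT in 5.16% (1.77%), while GGG was found in 39.9% (68.4%). AATAAA and TATAAA can overlap in the same letters. These differences lie in the direction that few G and C bases would give, and no comparison at matched composition was made.

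A+T-rich probes were dimmer than the other probes in both channels and on every array. On the 300–800 nt arrays their median processed signal of nascent strands was 340 and 341 against 836 and 829 for the other probes, or 40.7% and 41.2%. For genomic DNA it was 424 and 425 against 889 and 885, or 47.7% and 48.1%. The loss was therefore deeper in the nascent channel than in the genomic channel, by about the same amount on both arrays. On the 100–600 nt arrays the nascent medians were 220 and 478 against 289 and 805, or 76.0% and 59.4%, and the genomic medians were 84.9 and 223 against 102 and 283, or 82.9% and 78.9%. There too the nascent channel lost more, and the loss was smaller than on the 300–800 nt arrays.

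Dim did not mean undetected. On the 300–800 nt arrays 99.8% of the A+T-rich spots were well above background in each channel, and of the 2401 probes 1 was not well above it on either array in the nascent channel and 1 in the genomic channel. On the 100–600 nt arrays the share was at least 99.9%. Spots that the software marked as uneven, outlying or otherwise unusable were left out. They made up 2.37% and 15.4% of A+T-rich spots on the 100–600 nt arrays, against 7.72% and 16.5% of the others, and 0.0625% on each 300–800 nt array. All 2401 A+T-rich probes had a value on both 300–800 nt arrays, 2393 had one on at least 1 of the 100–600 nt arrays, and 2003 had one on all 4.

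The position of the A+T-rich probes against the rest was opposite in the 2 fractions after loess, which removes any trend of the ratio with signal within an array. In the 300–800 nt fraction their median log2 ratio was 0.11 on replicate 1 and 0.12 on replicate 2, which is 0.12 and 0.13 above the median of the other probes. On the 100–600 nt arrays it was -0.066 and -0.13, which is 0.10 and 0.16 below the others (differences of -0.10 and -0.16). The shift thus had the same sign on both arrays of a fraction, and the fractions differed by 0.26 on the log2 scale. By an exact two-sided permutation test over the 4 arrays p was 0.333, the smallest value that 2 arrays against 2 can give. The shifts are small beside the spread among A+T-rich probes, whose SD was 0.79 on both 300–800 nt arrays and 0.42 and 0.59 on the 100–600 nt arrays.

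The shift above the others in the 300–800 nt fraction rested on loess. With each array centred on its median and no loess, the mean shift of the A+T-rich probes in this fraction was -0.23, the opposite sign, and with the ratio that the authors deposited it was -0.23 as well. With normexp background correction followed by loess it was 0.059. With the signals as the software left them, the median log2 ratio of A+T-rich probes was -0.31 on both arrays, against -0.072 and -0.079 for the others. In the 100–600 nt fraction the shift was negative under every one of these settings that applies, at -0.13 with loess, -0.23 with median centring and -0.13 with normexp.

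The median log2 ratio varied with the number of G and C bases in different ways in the 2 fractions. In the mean of the 300–800 nt arrays the median was 0.16 at 18 G and C bases, 0.084 at 19 and 0.092 at 20, and at 21, just outside the rule, it was 0.096. It was -0.062 at 26 bases, the most common number, 0.13 at 36 and 0.99 at 41 (20 probes). Both ends thus lay above the middle, the G+C-rich end by more. In the mean of the 100–600 nt arrays the medians were -0.089, -0.12 and -0.069 at 18, 19 and 20 bases, -0.065 at 21, 0.025 at 26 and 0.48 at 36, with the A+T-rich end lowest. With median centring the 300–800 nt medians were -0.22, -0.24 and -0.17 at 18, 19 and 20 bases, -0.024 at 26 and 0.62 at 36, an order like that of the 100–600 nt fraction.

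The probes of a fragment lie on the same stretch of chromosome, so A+T-rich and other probes were also compared inside the 789 fragments that held both kinds. No limit was set on the distance between them, and some fragments are longer than the strands, so position was matched only roughly. On the 300–800 nt arrays the A+T-rich probes of a fragment lay 0.25 and 0.26 above its other probes on average, and they were the higher ones in 62.6% and 62.9% of fragments. On the 100–600 nt arrays the difference was -0.045 over 766 fragments and -0.081 over 645, with the A+T-rich probes higher in 47.5% and 45.0%. The fractions differed by 0.32 (exact two-sided permutation test, p = 0.333, the smallest possible). With median centring the 300–800 nt difference turned to -0.060, and with normexp it was 0.13. After centring each array within each number of G and C bases, the 100–600 nt difference turned to 0.048 and the 300–800 nt difference was 0.14. This centring gives every number of G and C bases the same median. It therefore takes out beforehand part of any difference that goes with the rule.

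A probe was called high when its value lay above the 0.95 quantile of all probes, which makes 5% of all probes high by construction. In the mean of the 300–800 nt arrays 209 of 2401 A+T-rich probes were high (8.70%), against 4.49% of the other probes. In the mean of the 100–600 nt arrays 52 of 2393 were high (2.17%, against 5% of all probes), and 5.39% of the others. By single array the share of A+T-rich probes was 8.16% and 8.91% in the 300–800 nt fraction and 1.32% and 3.56% in the 100–600 nt fraction, so that the ranges of the fractions did not overlap. The difference of 6.10 percentage points had p = 0.333 in the exact two-sided permutation test, again the smallest possible.

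The surplus of high probes in the 300–800 nt fraction was present with loess on the processed signals and absent with the other ways of making the ratio. With median centring 50 of 2401 A+T-rich probes were high (2.08%), with normexp also 50, and with the deposited ratio 2.08%, each against 5% of all probes. Of the 209 probes high with loess, 47 were among the 50 of median centring, 44 were among the 50 of normexp and 29 were high in all 3. In the 100–600 nt fraction the share was below 5% in each case, with 52 probes high by loess, 29 by median centring (22 of them shared) and 42 by normexp (31 shared). A+T-rich probes were also set against probes of like brightness, an alternative chosen after the data were seen. When high meant above the 0.95 quantile within the same of 5 equal classes of mean signal, 7.21% were high in the 300–800 nt fraction and 2.09% in the 100–600 nt fraction.

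A+T-rich probes and other probes were also compared within each of the 5 classes of mean signal, with loess only. On the 300–800 nt arrays 57.2% and 56.7% of the A+T-rich probes fell in the dimmest class, against 14.9% of the others on each array. In that class 9.75% and 10.6% of A+T-rich probes were high, against 5.60% and 5.58% of the other probes there. In the next class the shares were 5.82% and 6.96% against 5.36% and 5.10%, and in the middle class 6.69% and 7.24% against 3.66% and 3.69%. In the fourth class, with 109 and 112 A+T-rich probes, they were 3.67% and 3.57% against 3.37% and 3.14%. The brightest held 35 A+T-rich probes on each array, of which 11.4% and 8.57% were high, against 5.22% and 5.20%. The share was above that of the other probes in every class on both 300–800 nt arrays, which share a slide. The gap was small in the fourth class, and the brightest class rested on few A+T-rich probes. On the 100–600 nt arrays A+T-rich probes had the lower share of high probes in every class of both arrays.

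At the other end, the share of low probes, below the 0.05 quantile, was nearer to the background. In the 300–800 nt fraction 110 of 2401 A+T-rich probes were low (4.58%, against 5% of all probes), and in the 100–600 nt fraction 152 of 2393 were (6.35%, against 5%). With loess the 300–800 nt fraction thus had more A+T-rich probes at the high end than at the low end, and the 100–600 nt fraction had the reverse. The share of low probes was not taken with median centring or normexp, where 2.08% of A+T-rich probes were high in the 300–800 nt fraction.

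The 2 arrays of the 300–800 nt fraction agreed closely on the A+T-rich probes. The squared correlation of their log2 ratios was 0.95 over 2401 probes, against 0.972 over 17404 others, as a description across probes of arrays that share a slide. The median absolute difference was 0.095 against 0.070, and the SD between repeated spots was 0.21 and 0.20 against 0.15 and 0.15, so that A+T-rich probes were the noisier group by every one of these measures. Of the 196 A+T-rich probes high on replicate 1 and the 214 high on replicate 2, 177 were high on both (7.37% of 2401, against 4.25% of all probes).

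The 2 arrays of the 100–600 nt fraction agreed far less. Over the 2003 A+T-rich probes with both values the squared correlation was 0.302, against 0.355 over 13475 others, and the median absolute difference was 0.32 against 0.30. Of 25 A+T-rich probes high on replicate 1 and 71 high on replicate 2, 7 were high on both (0.349% of 2003, against 1.29% of all probes). All 7 lay in the first X region. Between the means of the 2 fractions the squared correlation was 0.250 over 2393 A+T-rich probes and 0.124 over 17242 others, and 17 A+T-rich probes were high in both means (0.710%, against 0.682% of all probes), a share near the background. Those 17 are 32.7% of the probes high in the 100–600 nt fraction and 8.13% of those high in the 300–800 nt fraction. With median centring 2 were high in both and with normexp 1.

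The fractions were compared probe by probe with limma on the 4 arrays, with Benjamini-Hochberg adjustment over all 15478 probes that had 4 values. At an adjusted p under 0.05, 510 of 2003 A+T-rich probes (25.5%) were higher in 300–800 nt than in 100–600 nt strands, against 18.9% of all probes, and 156 (7.79%) were lower, against 16.2% of all. The median difference was 0.24 over the A+T-rich probes and 0.013 over all probes. With the mean of the 300–800 nt arrays as 1 sample, a fit chosen after the data were seen, 165 A+T-rich probes were higher (8.24%, against 4.82% of all) and 17 were lower (0.849%, against 2.2%). The surplus of higher over lower calls was thus there in both fits, with fewer calls in the second.

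This surplus too moved with the processing. With median centring 305 A+T-rich probes were higher (15.2%, against 17.3% of all) and 221 were lower (11.0%, against 13.6% of all), so that both shares were below the background, and the median difference of the A+T-rich probes was 0.0072. With normexp 45 were higher (2.25%, against 3.35%) and 2 were lower (0.0999%, against 2.07%), while their median difference was 0.21.

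Named probes of the 300–800 nt fraction are the 5 with the highest mean among those high on both arrays and the 5 with the lowest among those low on both. The A+T-rich probe with the highest mean, at offset 140 of fragment 45447 in the first X region, had log2 ratios of 2.39 and 2.75 on the 300–800 nt arrays, and -0.26 and 0.97 on the 100–600 nt arrays. Its difference of 2.21 (SE 0.43) passed the test (limma, adjusted p = 0.019). The probe was picked by its 300–800 nt values, so a large difference was favoured beforehand and the test is no independent evidence. Of the 5 highest it was the only one still high with normexp as well as with median centring. The next, at offset 10 of fragment 108973 on chromosome 3, had 2.33 on both 300–800 nt arrays, and -0.45 and 0.40 on the others. The third, at offset 261 of fragment 45574, had 2.01 and 2.56, and 0.21 and 0.73. All 5 of the highest stayed high with median centring. The remaining pair, at offset 330 of fragment 65524 and offset 30 of fragment 67325 in the second X region, had means of 2.26 and 2.24.

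In the 100–600 nt fraction the named probes are the 5 highest of the 7 that were high on both arrays, all of which lay in the first X region. The highest of them, at offset 180 of fragment 44732, had log2 ratios of 0.66 and 1.59 on the 100–600 nt arrays and of 0.42 and 0.53 on the 300–800 nt arrays. The probe at offset 390 of fragment 45824 had 1.10 and 0.95, and 2.42 and 2.03, and was the only A+T-rich probe high on all 4 arrays (1 of 2003, or 0.0499%, against 0.291% of all probes). It is a dim probe: on 100–600 nt replicate 1 its single spot was not well above background in both channels, and with normexp its mean was 0.17 and 0.23 in the 100–600 nt and 300–800 nt fractions and it was high in neither. The others, at offset 500 of fragment 42671, offset 110 of fragment 45752 and offset 10 of fragment 44706, had means of 0.93, 0.92 and 0.89.

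The 5 lowest in the 300–800 nt fraction lay in all 3 regions. The lowest, at offset 30 of fragment 65239, had -3.16 and -2.92 on the 300–800 nt arrays and -0.97 and -1.66 on the 100–600 nt arrays. Its nascent signal was near background, with none of its spots on replicate 1 and 1 of 2 on replicate 2 well above it in both channels, so its ratio there is poorly set, and normexp moved its mean to -0.27. The probes at offset 40 of fragment 109025, offset 10 of fragment 42622, offset 10 of fragment 105606 and offset 10 of fragment 67285 had means of -2.98, -2.93, -2.65 and -2.64. Only the last kept a mean below -2 with normexp, at -2.49. Where they had values in the 100–600 nt fraction these were below 0 too, between -0.96 and -1.92.

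The 3 largest differences between the fractions in favour of 300–800 nt began with offset 680 of fragment 64949 (2.53, SE 0.25, limma adjusted p = 0.0075). Next were offset 30 of fragment 67325 (2.39) and offset 10 of fragment 108973 (2.35). The first had no spot on 300–800 nt replicate 1 that was well above background in both channels. The 3 largest the other way began with offset 30 of fragment 45381 (-1.84, SE 0.18, limma adjusted p = 0.0075). Next were offset 30 of fragment 65239 (-1.73) and offset 100 of fragment 43272 (-1.71). Only probes called by limma could be picked, and they were ranked by this same difference. Their adjusted p-values are therefore no independent evidence. The probe of fragment 45381 had 0.17 and -0.21 on the 100–600 nt arrays and -1.88 and -1.84 on the 300–800 nt arrays, and its 300–800 nt mean was -1.86 with loess and -1.84 with normexp. Of the other probes named here, normexp moved the 300–800 nt mean of fragment 64949 from 1.75 to 0.063, of fragment 67325 from 2.24 to 0.50, of fragment 108973 from 2.33 to 0.76, of fragment 65239 from -3.04 to -0.27 and of fragment 43272 from -1.45 to -0.84. With median centring the mean of fragment 64949 was 0.56.

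The 5 probes taken from those with the fewest G and C bases, by name, lay on both sides of 0. All have 18 and lie on chromosome 3, in fragments 105302, 105307, 105317, 105341 and 105342. Their 300–800 nt means ran from -0.41 to 0.62 and their 100–600 nt means from -0.54 to 0.11. None was high in either fraction.

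On the 300–800 nt arrays the A+T-rich probes with more G than C had lower median ratios than the rest. The 232 with as many G as C had medians of 0.21 and 0.31 there, and of 0.076 and -0.047 on the 100–600 nt arrays. The letters of a probe are those of the plus strand, as far as this could be checked, in 125 of 125 probes that lie in a promoter window of the reference. On the 300–800 nt arrays the 1113 A+T-rich probes with more C than G had medians of 0.21 and 0.21, and the 1056 with more G than C had -0.031 and 0.0054, a difference of 0.24 and 0.20. The other probes showed a difference of the same sign, 0.33 and 0.32. On the 100–600 nt arrays the sign was not shared: it was -0.18 on replicate 1 and 0.13 on replicate 2, and among the other probes -0.15 and 0.11. The difference on the 300–800 nt arrays kept its sign with median centring (0.50 and 0.46) and with normexp (0.13 and 0.064), and the split of the 100–600 nt arrays was there in both too. The balance of A against T moved the medians less. On the 300–800 nt arrays they were 0.086 and 0.097 with more A and 0.11 and 0.11 with more T.

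Among the motifs AATAAA went with the widest gap in the share of high probes. A+T-rich probes with AATAAA were high in the 300–800 nt fraction in 5.60% of 357 cases, against 9.25% of the 2044 without it. Those with ATATAT were high in 5.65% of 124 cases against 8.87%, those with TATAAA in 8.14% of 295 against 8.78%, those with a run of 6 A or T in 8.33% of 180 against 8.73%, and those with a CpG in 8.23% of 559 against 8.85%. All of these shares were above 5%, but they are with loess only. With median centring, and also with normexp, 2.08% of all A+T-rich probes were high in this fraction. In the 100–600 nt fraction 1.13% of those with AATAAA were high against 2.36% without it, and 4.03% of those with ATATAT against 2.07%, where ATATAT goes the other way. Only 52 A+T-rich probes were high in the 100–600 nt fraction, so these motif shares rest on few probes. Probes with GGG had 300–800 nt medians of 0.014 and 0.027 against 0.17 and 0.16 without it, and the share of high probes was 8.86% against 8.60%.

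With loess, in each of the 3 regions, the A+T-rich probes lay above the other probes of the region on both 300–800 nt arrays and below them on both 100–600 nt arrays. Their 300–800 nt medians were 0.030 and 0.069 on chromosome 3, 0.14 and 0.15 in the first X region and 0.12 and 0.14 in the second, and 8.44%, 9.45% and 8.16% of them were high. For the 100–600 nt strands the first X region stood apart. There 35 A+T-rich probes were high (4.0%), against 8 on chromosome 3 (1.28%) and 9 in the second X region (1.01%), and the median on replicate 2 was 0.058 against -0.28 and -0.20. The other probes of that region had the highest median of the 3 on replicate 2 as well (0.15), but not the highest share of high probes, which was 5.24% against 6.51% in the second X region. Of the 17 A+T-rich probes high in both fractions with loess, 11 lay in the first X region, 2 on chromosome 3 and 4 in the second X region. The first X region holds 36.6% of the A+T-rich probes. With median centring 2 A+T-rich probes were high in both fractions, and with normexp 1.

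A nascent strand is longer than a probe and can also cover the probes next to it, so neighbours within 800 bp in the same fragment were examined. In the 300–800 nt fraction 101 of the 209 high A+T-rich probes had such a neighbour, and for 15 of them (14.9%) at least 1 neighbour was high, against 11.4% for A+T-rich probes that were not high. For the other probes the shares were 21.4% and 13.2%. Among the 100–600 nt values 7 of 30 high A+T-rich probes with a neighbour (23.3%) had a high one, against 9.15% of those not high, and for the other probes the shares were 35.9% and 13.8%. These are counts with no test, because neighbouring probes share strands. The number of neighbours per probe was not matched, and A+T-rich probes sat in fragments of median length 343 bp against 795 bp for the others.

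The study's own table of origins lists 150 probe sequences, all found on the array, and 10 of them are A+T-rich. That is 0.416% of the A+T-rich probes, against 0.804% of the others. The origins were chosen on these same arrays, so the values of these probes in the 300–800 nt fraction are a description and no independent evidence. All 10 were high in the 300–800 nt fraction with loess, and 1 in the 100–600 nt fraction. With median centring 2 of the 10 were high and with normexp none was, although all 10 means stayed above 0 in both cases. The other 199 A+T-rich probes high in the 300–800 nt fraction are not in the table. Most high probes of any kind are unlisted, as 991 of all 19805 probes were high and the table lists 150. A+T-rich probes made up 209 of the 991 high probes but 10 of the 150 listed ones. How many of the other high probes are listed was not counted.

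By location, 4 of the 10 are listed as intergenic, 3 as intronic, 2 as 3′ UTR and 1 as promoter, and 1 is at a CpG island. Coordinates are of Ensembl mouse build 35, as the table gives them. The promoter probe, at X:47508381-47508440, belongs to Hprt, which encodes a purine salvage enzyme used in every cell. It held 18 G and C bases and no CpG, although it is listed at a CpG island. Its log2 ratios were 1.52 and 1.37 on the 300–800 nt arrays and -0.027 and 0.32 on the 100–600 nt arrays. At the other end of the gene a probe listed in the 3′ UTR of Hprt1, at X:47542451-47542510, had 1.96 and 1.95, and 0.048 and 0.37. The difference between the fractions was 1.30 for the promoter probe and 1.75 for the 3′ UTR probe.

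The intronic probes lay in Bcl9, which encodes a cofactor of β-catenin in Wnt signalling (3:96697339-96697398, means of 1.70 and 0.035 in the 300–800 nt and 100–600 nt fractions), in Hs6st2, a heparan sulfate sulfotransferase gene (X:46132206-46132265, 1.65 and -0.36), and in Gpc4, a glypican gene (X:46617931-46617990, 1.64 and 0.49). Of the 4 intergenic probes, that at X:45840961-45841020 was the 1 also high in the 100–600 nt fraction, with 0.59 and 0.79 there and 1.58 and 1.84 in the 300–800 nt fraction. The other intergenic probes, at X:46715208-46715267, X:65701857-65701916 and X:66848875-66848934, had 300–800 nt means of 1.17, 1.39 and 1.42 and 100–600 nt means between -0.049 and 0.24.

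The probe sequences were searched in the RefSeq promoter windows of GRCm38.p6, from 250 bases before to 50 bases after each gene start, and 125 probes lay whole inside one. Of these 4 were A+T-rich, or 0.167% of the A+T-rich probes against 0.695% of the others. They lay at Hsd3b5, a steroid dehydrogenase gene (3:98645722-98645781), at Gm35988 (X:53128756-53128815), at Pnma5, a paraneoplastic antigen family gene (X:73037166-73037225), and at Tex28, a gene named for its expression in testis (X:74167814-74167873). Their 300–800 nt means were -0.29, 0.54, 0.74 and 0.48, their 100–600 nt means were -0.65, 0.25, 0.11 and -0.013, and none was high in either fraction. The 125 probes in a window include these 4. Of the other probes in a window, 15 were high in the 300–800 nt fraction and 29 in the 100–600 nt fraction. Among all probes on the array 5% were high in each fraction by construction. A set of 4 A+T-rich probes is too small for its lack of high probes to be weighed against these counts.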

How the data were processed

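The values come from 4 two-colour Agilent arrays. The authors deposited the signal intensity of both dyes per spot: Feature Extraction 7.5.1 without dye normalisation for 100–600 nt strands, and 9.5.3.1 with dye normalisation, 2 spots per probe and a log10 ratio of Cy5 over Cy3 for 300–800 nt strands. Log2 ratios, nascent over genomic, were taken from the processed signals, without control and marked spots, loess-normalised within each array (limma 3.58.1, R 4.3.3), and averaged over spots and over the arrays of a fraction. The log10 ratio, turned to nascent over genomic DNA and to log2, was an alternative. Normexp (offset 50) used mean signals for 100–600 nt and median signals for 300–800 nt.

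Tables were made in Python 3.11.15 with pandas 2.3.3 and numpy 2.4.6. limma was tested on simulated data. The number of arrays limits the precision. The hybridisation numbers were not taken as pairs: the replicate differences of the fractions correlated at -0.0097 over 15478 probes.

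Members, lists and tests were chosen with earlier results of these data known. Named probes are the 5 highest of each fraction and the 5 lowest of 300–800 nt strands that passed the quantile on both arrays, the 5 with the fewest G and C bases, the 3 with the largest difference each way, those high on all 4 arrays, and those the study lists. Not every listed probe is reported here. Genome sequence of the arrays' build was not used here.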

Additional observations from a re-analysis of the deposited data

Results flagged for a closer look

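The median log2 ratio of A+T-rich probes lay above that of the other probes on both 300–800 nt arrays and below it on both 100–600 nt arrays, and the fractions differed by 0.256. The exact permutation test over 4 arrays cannot go below 0.333, so the difference is in effect untested. It was absent with median centring, where the 300–800 nt shift was -0.23.

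Inside fragments that held both kinds of probe, the difference between A+T-rich and other probes likewise had opposite signs in the fractions, which differed by 0.322. The opposite signs were lost with median centring (-0.060 in the 300–800 nt and -0.14 in the 100–600 nt fraction) and after centring by G and C bases (0.14 and 0.048). The latter takes out beforehand part of any difference that goes with the rule. Strand length, dye, print design and software changed together, and their part was not tested.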

How the results depend on the processing

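All shifts are of A+T-rich minus other probes, on the log2 scale, and counts are of A+T-rich probes. In the 300–800 nt fraction the sign depended on loess: with median centring the median shift (0.12) was -0.23 and the difference within fragments (0.26) was -0.060, and with the deposited ratio they were -0.23 and -0.060. With normexp they were 0.059 and 0.13. Over probes of at most 18 and 22 G and C bases the median shifts were 0.16 and 0.11, and the differences within fragments were 0.35 and 0.22. Centring within each number of G and C bases gave 0.14 within fragments. Because the rule is set by that number, this centring takes out part of any such difference beforehand, here and in the counts below. In the 100–600 nt fraction median centring gave a median shift of -0.23 and a difference within fragments of -0.14, 18 G and C bases gave -0.030 within fragments, and centring within each number of G and C bases turned that difference (-0.063) to 0.048.

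The share of high probes in the 300–800 nt fraction (8.70%) was 2.08% with median centring, normexp and the deposited ratio. It was 10.0% and 6.76% at 18 and 22 G and C bases, 14.7% and 2.25% at the 0.9 and 0.99 quantiles, 6.66% after centring by G and C bases and 7.21% within 5 classes of signal. For 100–600 nt strands the share (2.17%) was 4.64% and 0.209% at the 0.9 and 0.99 quantiles and 4.64% after centring by G and C bases. Leaving out each array gave 8.16% to 8.91% and 1.32% to 3.56%, median shifts of 0.12 to 0.13 and -0.16 to -0.10, and differences within fragments of 0.25 to 0.26 and -0.081 to -0.045.

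Of the limma counts, 510 higher and 156 lower, median centring gave 305 and 221, and normexp 45 and 2. At 18 G and C bases they were 161 and 37, at 22 they were 910 and 356, and centring by G and C bases gave 348 and 262. The 300–800 nt arrays as 1 sample gave 165 and 17. Leaving out each array gave 151 to 1129 higher and 14 to 572 lower: 1040 and 450 without 100–600 nt replicate 1, 1129 and 572 without 100–600 nt replicate 2, 172 and 14 without 300–800 nt replicate 1, and 151 and 17 without 300–800 nt replicate 2. A lone array is then assumed to vary like the others. With the hybridisation number as a replicate block the counts were 580 and 182. Keeping marked spots and taking the median of repeated spots left every one of these results within its spread or within 1.5 times its count. The causes of these moves were not tested. Signals of the A+T-rich probes lay closer to background than those of the other probes on the 300–800 nt arrays.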
